A study of Mus musculus with 55 samples.

Results

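Claudins and connexins, the proteins that build tight junctions and gap junctions, were followed across 10 cell populations sorted from mouse liver. The members were all symbols of the deposited table made of Cldn or of Gja, Gjb, Gjc, Gjd or Gje and a number, with the row of highest mean kept for each symbol. The rule found 43 genes, 23 claudins and 20 connexins, of 24478 symbols. Related symbols such as Cldnd1 lie outside it. RNA sequencing gave FPKM, fragments scaled to transcript length and library size, in 55 libraries. Of these, 27 came from unoperated (normal) liver and 28 were made following partial hepatectomy (PH), an operation that takes out part of the liver. The strain was C57B/L6 in every group, and the labels name no genotype, transgene, age, sex or time after surgery. Cells were sorted by flow cytometry into TRIzol. The normal groups were clonal biliary epithelial cells (cBEC, n = 4), biliary epithelial cells (BEC, n = 4), non progenitor ducts (NPD, n = 2), hepatocytes (HC, n = 4), endothelial cells (EC, n = 2), liver sinusoidal endothelial cells (LSEC, n = 3), Kupffer cells (KC, n = 2), hepatic stellate cells (HSC, n = 2), Thy1 cells (n = 2) and blood cells (n = 2). After PH the same sorts gave 2, 2, 2, 4, 3, 5, 3, 3, 2 and 2 libraries.

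Claudins are membrane proteins with 4 passes whose outer loops meet between neighbouring cells and set which ions and solutes leak past an epithelium or endothelium. Connexins assemble into hemichannels that dock across the gap between cells, so that ions and small metabolites pass from cell to cell. In liver, tight junctions seal the bile canaliculi between hepatocytes and the lumen of bile ducts, and gap junctions couple hepatocytes to each other.

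The sum of FPKM per library ran from 624726 to 1203197, and the correlation of log2(FPKM + 1) between replicates from 0.919 to 0.996. Read depth is unknown, and the labels do not say that replicates came from separate animals, so p-values measure only the spread between these samples. The library titled PH cBEC replicate 1 carries the treatment tag normal and was kept as titled. NPD libraries held the 6 mesothelial markers (Msln, Upk3b, Upk1b, Wt1, Lrrn4, Gpm6a) at a summed 5930 to 6374 FPKM in normal liver and 4122 to 4654 after PH. Their 6 duct markers (among them Krt19, Krt7, Epcam, Sox9 and Spp1) summed to 2595 to 3800 FPKM in normal NPD, below the mesothelial sums. After PH the duct sums were 3949 to 4718 FPKM, overlapping the mesothelial range. In normal BEC the mesothelial sum was 68.9 to 120.0 and the duct sum 14795 to 21719. The PH blood libraries also went against their label, with 6 Kupffer markers at 9266 to 16278 against 465 to 752 in normal blood, and 6 blood markers at 457 to 951 against 4397 to 5112.

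Of the 43 genes, 23 reached 10 FPKM in at least 1 group mean (13 claudins and 10 connexins), 3 reached 1 FPKM but not 10, and 17 stayed below 1 FPKM in every group mean. Cldn16 and Gjd2 were listed at 0 in all 55 libraries. The 23 expressed genes fell by where they were highest. Cldn2, Cldn3, Cldn4, Cldn6, Cldn7, Cldn8, Cldn12 and Cldn23 were highest in BEC or cBEC in both normal and PH liver. Gjb1, Gjb2, Cldn1 and Cldn14 were highest in hepatocytes, and every hepatocyte library lay above every other library of the same treatment. Cldn15 and Cldn10 were highest in NPD under both treatments, as Gja5 was in EC. A moderated F test over the 10 normal populations (limma on log2(FPKM + 1), Benjamini-Hochberg) called 24 of the 26 members tested, where 93.3% of all genes tested were called, so being called here is the usual case. Cldn20 (adjusted p = 0.607) and Cldn22 (adjusted p = 0.117) were not called by that limma test.

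**Figure D1:**
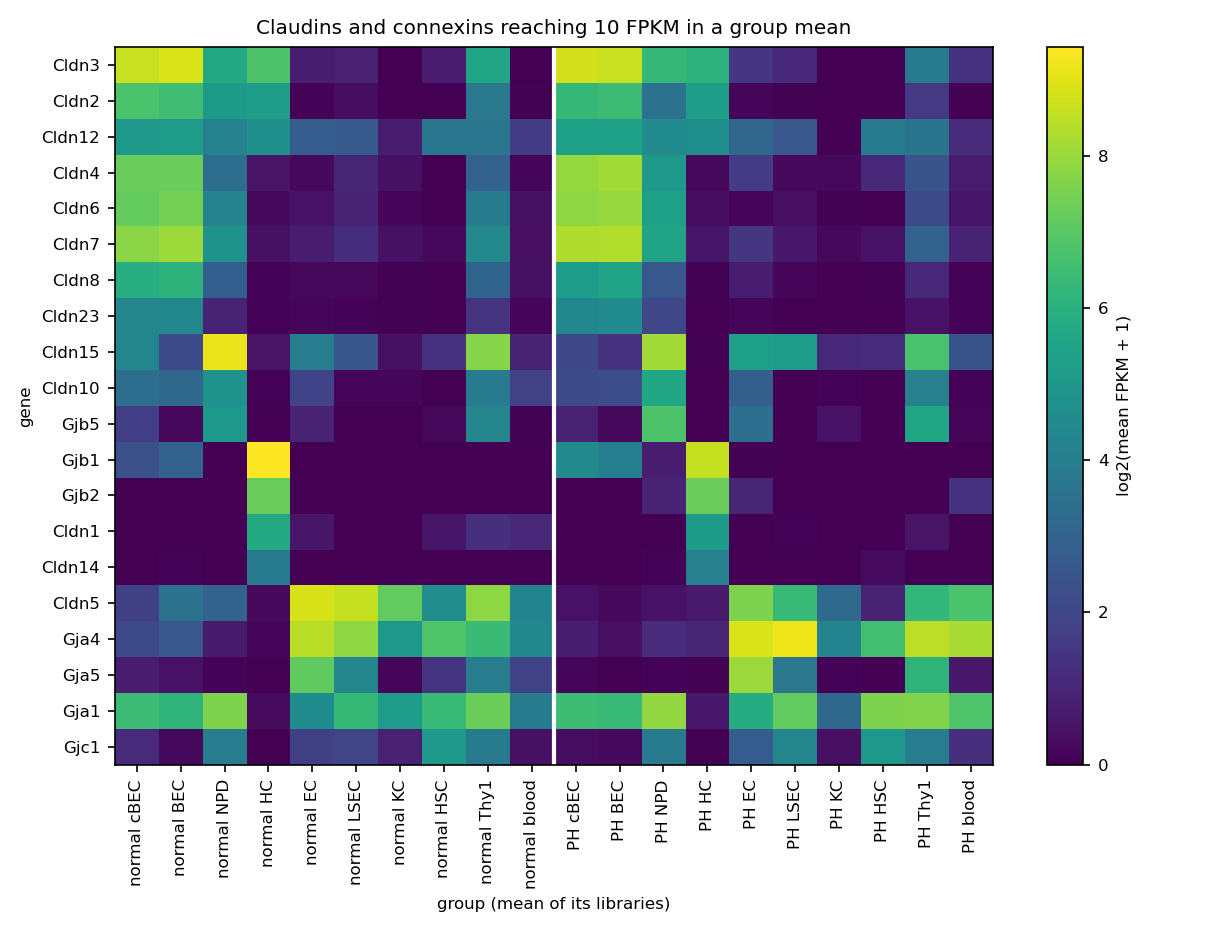
Group means of 20 genes that reached 10 FPKM in a group mean, as log2(mean FPKM + 1) by colour, with genes in rows and the 10 sorts of normal liver (left of the white line) and of PH liver (right) in columns. Duct claudins fill the BEC and cBEC columns, Gjb1 and Gjb2 the hepatocyte columns, and Cldn5 and Gja4 the EC and LSEC columns. Cldn5 and Gja4 are not confined to these, with means of 225 FPKM for Cldn5 in normal Thy1 cells and 114 for Gja4 in normal HSC.

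The claudins of the duct sorts belong to a family marked by a shared stretch in the first outer loop. That stretch is shown for the 4 claudins with the highest mean in normal BEC, and for Cldn5, the endothelial claudin. Sequences are coding bases of the GRCm38 reference, 5′ to 3′, each within 1 coding exon. Capitals mark the codons of the signature: a tryptophan, the glycine-leucine-tryptophan run and 2 cysteines. Cldn3 lies at chr5:134986529-134986633 (+ strand), Cldn4 at chr5:134946554-134946658 (- strand), Cldn6 at chr17:23681151-23681255 (+), Cldn7 at chr11:69966014-69966118 (+) and Cldn5 at chr16:18777083-18777187 (+).
Cldn3: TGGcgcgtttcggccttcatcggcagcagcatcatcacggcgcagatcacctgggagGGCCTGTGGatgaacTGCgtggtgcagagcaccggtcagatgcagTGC
Cldn4: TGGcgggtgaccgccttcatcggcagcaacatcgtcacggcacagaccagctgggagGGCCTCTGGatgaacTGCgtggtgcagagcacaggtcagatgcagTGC
Cldn6: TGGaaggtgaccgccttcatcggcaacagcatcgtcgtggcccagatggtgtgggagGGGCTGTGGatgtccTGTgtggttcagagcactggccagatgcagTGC
Cldn7: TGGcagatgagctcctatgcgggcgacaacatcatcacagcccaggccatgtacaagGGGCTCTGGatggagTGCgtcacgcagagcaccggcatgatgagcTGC
Cldn5: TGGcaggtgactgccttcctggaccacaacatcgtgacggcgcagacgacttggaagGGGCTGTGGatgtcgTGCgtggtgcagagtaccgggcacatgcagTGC
Cldn3 and Cldn4 were 69.4% identical over their coding bases, with a longest shared run of 35 bases, and are neighbours on chromosome 5, 39278 bases apart in the table's mm9 coordinates. Cldn6 was 73.2% identical to Cldn9, which lies 135 bases away on chromosome 17 and shares a run of 37 bases. Reads from such runs could be assigned to either gene, and how the authors' counting treated them is not stated. Cldn9 stayed at or below 0.499 FPKM in every group mean.

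Cldn3, a claudin that tightens the paracellular barrier, had the highest mean of the claudins in BEC and in cBEC. In normal BEC its libraries read 427, 739, 312 and 410 FPKM, and in normal cBEC 361, 363, 515 and 346. In hepatocytes it stood at 124, 83.9, 102 and 126 FPKM, below every BEC and cBEC library. Cldn7, a widely expressed epithelial claudin, stood at 249, 379, 214 and 219 FPKM in normal BEC against 0.24, 0.20, 0.23 and 0.70 in hepatocytes. BEC libraries of Cldn7 did not overlap the hepatocyte libraries. Cldn6, known best from embryonic epithelia, was at 178, 224, 147 and 155 FPKM in normal BEC and at 0.20, 0.06, 0.22 and 0.27 in hepatocytes. Cldn4, another barrier claudin, was at 123, 293, 108 and 93.7 FPKM in normal BEC against 0.20, 0.08, 0.44 and 0.89 in hepatocytes. Cldn2, which forms cation and water pores, differed less between the 2 epithelia: 107, 81.2, 74.3 and 111 FPKM in BEC and 26.9, 46.9, 44.5 and 31.4 in hepatocytes. BEC and cBEC libraries of all 8 duct claudins overlapped, so the order of these 2 sorts was within their spread.

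**Figure D2:**
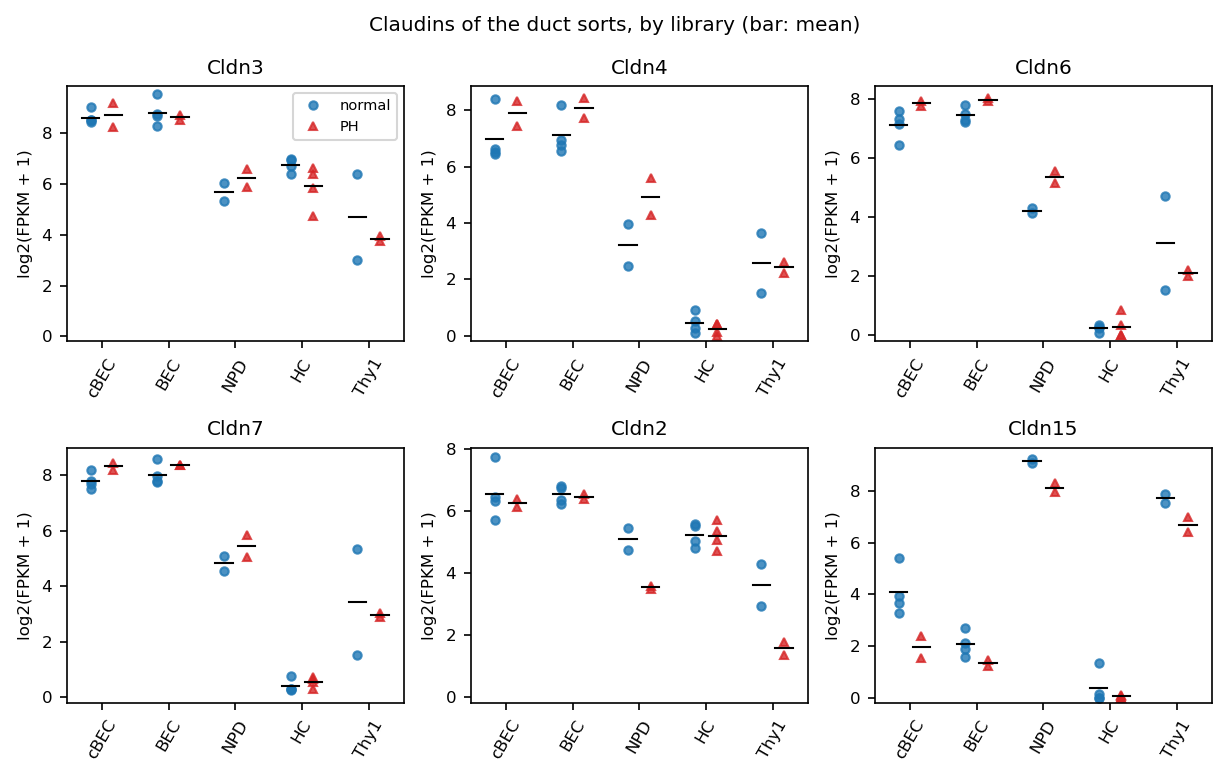
Level of 6 claudins as log2(FPKM + 1) on the y axis, for every library of cBEC, BEC, NPD, HC and Thy1 (x axis), with blue circles for normal liver, red triangles for PH and black bars for the mean of each group. Cldn3 and Cldn2 are present in hepatocytes, Cldn4, Cldn6 and Cldn7 are near 0 there, and Cldn15 is highest in NPD.

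BEC and hepatocytes, the epithelia that border bile, were compared in normal liver. All 17 members tested were called by limma, 13 higher and 4 lower in BEC, where 85.9% of all genes tested were called (71.7% higher and 14.2% lower), so a call here was the usual outcome. The largest differences toward BEC on the log2(FPKM + 1) scale were Cldn7 at 7.61 (SE 0.21), Cldn6 at 7.21 (SE 0.16), Cldn4 at 6.67 (SE 0.35), Cldn8 at 6.01 (SE 0.13), Gja1 at 5.86 (SE 0.21) and Cldn23 at 4.29 (SE 0.15). The largest limma adjusted p among these was 1.15e-07. Cldn3 differed by 2.05 (SE 0.28) and Cldn2 by 1.31 (SE 0.23), with BEC libraries above all hepatocyte libraries for both, and the call of Cldn2 was lost after upper-quartile scaling (limma adjusted p = 0.0893). The median of all genes tested in this comparison was itself 1.35 toward BEC, and 0.65 or 0.18 after upper-quartile or quantile scaling. Cldn12, the smallest call at 0.50 (SE 0.19, limma adjusted p = 0.0308), turned to -0.35 and -0.20 under those scalings. Its limma call was also lost without normal BEC replicate 1 (adjusted p = 0.0821) or 4 (0.0656) and without normal HC replicate 1 (0.077) or 4 (0.0745).

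Gjb1 (connexin 32) and Gjb2 (connexin 26) are the gap junction proteins of hepatocytes. Gjb1 was at 813, 561, 580 and 805 FPKM in the normal hepatocyte libraries, the highest level of any member. After PH it was at 186, 354, 499 and 513 FPKM, so that every PH library lay below every normal one. The limma change was -0.91 (SE 0.33, adjusted p = 0.147), which did not pass. Beside it, blood markers summed to 0.37 to 6.16 FPKM in normal and 136 to 329.5 in PH hepatocytes, and Kupffer markers to 0.09 to 4.63 and 2.69 to 107. Only 1 of 6 blood markers was tested, and it was called higher. Cd3e, Cd79a and Nkg7 were at 0 in every PH hepatocyte library. Of the 6 Kupffer markers 1 was tested, and it was not called. Of the hepatocyte markers 1 of 6 was called lower. The part of these lists was not tested. Gjb2 was at 131, 179, 180 and 128 FPKM in normal hepatocytes and at 108, 189, 160 and 156 after PH, with overlapping libraries. Cldn1, a barrier claudin, was at 38.8, 78.4, 67.8 and 30.2 FPKM and then at 42.6, 43.6, 22.7 and 29.1. Cldn14 was lower, at 14.9, 11.9, 12.1 and 17.5 FPKM in normal hepatocytes and 9.73, 17, 19.5 and 19.1 after PH. None of the 7 members tested in hepatocytes was called by limma, where 6.19% of all genes were (1.78% higher and 4.41% lower). An unadjusted p under 0.05 was found for 2, Gjb1 and Cldn3, a share not counted for all genes. Cldn3 was at 25.6, 56.1, 83.2 and 98.7 FPKM after PH, a change of -0.86 (SE 0.38, limma adjusted p = 0.228), and Cldn1 changed by -0.57 (SE 0.34, limma adjusted p = 0.376).

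Outside hepatocytes these 4 genes were mostly listed at exactly 0. Of the 47 other libraries, Gjb2 was listed at 0 in 43, Cldn14 in 42, Gjb1 in 38 and Cldn1 in 37. As a background, genes whose mean was 10 FPKM or above in 5 or more of the non-hepatocyte groups were counted. Of their values in those 47 libraries 5.91% were exactly 0 when the hepatocyte mean reached 100 FPKM, the range of Gjb1 and Gjb2. The share was 1% when it lay between 10 and 100 FPKM, the range of Cldn1 and Cldn14, and 1.43% when it stayed under 10. All 6 hepatocyte markers (Alb, Apoa1, Ttr, Apob, Serpina1c, Cps1) were at 0 in every normal library of BEC, NPD, EC, LSEC, KC, HSC and blood. Whether a listed 0 of Gjb1, Gjb2, Cldn1 or Cldn14 is a failed estimate was not tested. The background cannot tell, because it holds only genes expressed in other sorts. No fold against other sorts, or between treatments outside hepatocytes, is given in the text for these 4 genes. The 4 members called lower in BEC than in hepatocytes were these 4. Those calls rest largely on the listed zeros, so nothing further is read from them. Gjb1 in normal BEC was 0, 27.4, 0 and 0 FPKM. In cBEC it was 8.26, 0, 0 and 8.05 FPKM in normal liver and 23.5 and 20.6 after PH.

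Cldn15, which forms cation pores and is known from intestine, was not a gene of BEC. It was at 597 and 546 FPKM in normal NPD and at 237 and 186 in normal Thy1 cells, against 2.71, 3.33, 5.50 and 1.98 in BEC. NPD libraries lay above all Thy1 libraries, and these above all other sorts. After PH it was at 246 and 316 FPKM in NPD (change -1.03, SE 0.22, limma adjusted p = 0.0383) and at 126 and 83.9 in Thy1 cells (-1.02, SE 0.35, limma adjusted p = 0.245). Cldn10, an ion-pore claudin, was at 35.2 and 20.3 FPKM in normal NPD and 17.8 and 10.7 in Thy1 cells. The mesothelial marker sum was 1866 to 3007 FPKM in normal Thy1 cells and 1062 to 1699 after PH, none of the 6 markers being at 0 in NPD or Thy1 cells. Their part in these levels was not tested. In bulk libraries of sorted cells, fewer cells of a type and less RNA per cell cannot be told apart.

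Clonal biliary cells were set against non progenitor ducts in normal liver. Limma called 12 of 19 members, 7 higher and 5 lower in cBEC, where 29.7% of all genes were called (18.5% higher and 11.2% lower). Higher in cBEC were Cldn4 by 3.78 (SE 0.70), Cldn23 by 3.39 (SE 0.36), Cldn8 by 3.01 (SE 0.25), Cldn7 by 2.97 (SE 0.25), Cldn3 by 2.93 (SE 0.27), Cldn6 by 2.91 (SE 0.30) and Cldn12 by 0.88 (SE 0.20). The duct marker sum was 9493 to 19917 FPKM in cBEC, above the NPD sums, and the mesothelial sum was 146 to 502, below them, with 6 of 6 mesothelial markers called lower. Their part was not tested. Lower in cBEC were Cldn15 by -5.08 (SE 0.57), Gjb5 by -3.28 (SE 0.57), Gjc1 by -2.96 (SE 0.44), Cldn10 by -1.48 (SE 0.41) and Gja1 by -1.14 (SE 0.18). Their limma adjusted p ran from 0.0013 for Cldn15 to 0.0307 for Cldn10. The limma call of Cldn10 was lost without normal cBEC replicate 2 (adjusted p = 0.0726) or 3 (0.0522) and without normal NPD replicate 1 (0.242) or 2 (0.0583). Without NPD replicate 1 the call of Gjb5 was lost (limma adjusted p = 0.0614), and without NPD replicate 2 that of Cldn12 (limma adjusted p = 0.0795).

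Gjb5 (connexin 31.1), known from skin and other stratified epithelia, rose in NPD after PH. Normal NPD libraries held 46.3 and 17.5 FPKM of it, and PH NPD libraries 106 and 116. Both PH libraries lay above both normal ones, and the change on the log2(FPKM + 1) scale was 1.93 (SE 0.45, limma adjusted p = 0.0482). Limma called 6 of the 15 members tested in NPD, where 15.2% of all genes were called (9.65% higher and 5.51% lower). Among them were also Cldn6, higher by 1.13 (SE 0.20, limma adjusted p = 0.0262), and Cldn15 and Cldn2, lower by -1.03 and -1.56 (limma adjusted p = 0.0383 and 0.0268). Cldn6 went from 18.8 and 16.7 FPKM to 46.0 and 34.8, and Cldn2 from 25.5 and 43.2 to 11 and 10.2. For each of these genes the normal and PH libraries did not overlap. How many of all genes did so was not counted, so this adds nothing to the calls. With PH NPD replicate 1 or 2 left out no member was called, the limma adjusted p of Gjb5 being 0.3 and 0.387. With no filter all 4 named calls were lost (limma adjusted p of 0.0632 to 0.113), with a pseudocount of 0.1 that of Gjb5 (0.0552), and in the single fit of 20 groups those of Cldn6 (0.15) and Cldn15 (0.378). The mesothelial sum was lower and the duct sum higher in PH than in normal NPD (values above), with 1 of 6 mesothelial markers called lower and 0 of 6 duct markers called. Kupffer markers summed to 82.4 to 179.8 FPKM in normal and 4.74 to 8.81 in PH NPD, with 5 of 6 called lower. Their part in these changes was not tested.

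**Figure D3:**
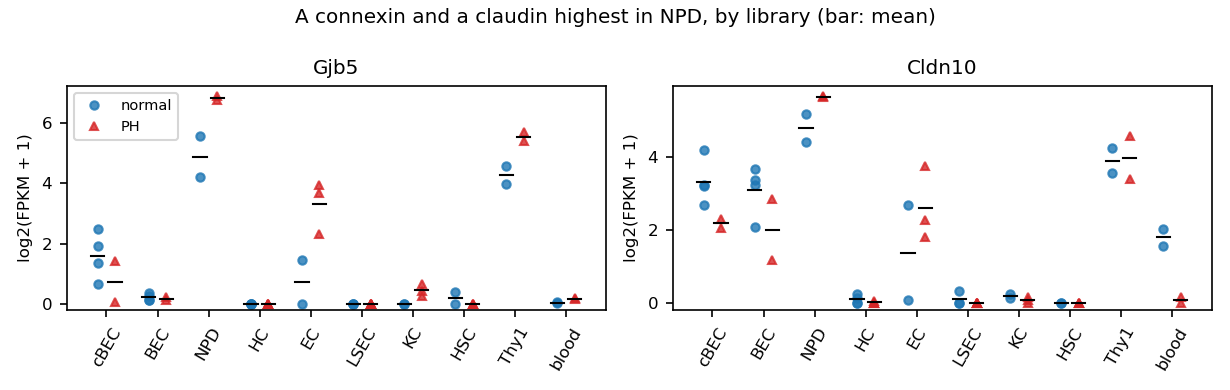
Level of Gjb5 and Cldn10 as log2(FPKM + 1) on the y axis, for every library of the 10 sorts (x axis), with blue circles for normal liver, red triangles for PH and black bars for the group mean. Both genes are highest in NPD and next in Thy1 cells, and Gjb5 is also present in PH EC.

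Gjb5 stood higher in PH than in normal libraries of Thy1 cells and EC, without passing the test there. In Thy1 cells it went from 22.9 and 14.7 FPKM to 50.3 and 41.2 (1.26, SE 0.30, limma adjusted p = 0.174). In EC it was at 0 and 1.74 FPKM, then 14.3, 3.96 and 11.7 (2.58, SE 0.61, limma adjusted p = 0.235). Normal and PH libraries of Gjb5 did not overlap in either sort, and how many of all genes did so was not counted. The EC libraries held a mesothelial sum of 58.8 to 197 FPKM in normal liver and 167 to 660 after PH, and a duct sum of 45.3 to 56.7 and 167 to 321. Their part was not tested. In BEC, LSEC, hepatocytes, KC, HSC and blood Gjb5 stayed below 1 FPKM in every library.

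Whether the responses differed between sorts was tested directly in a single fit of all 20 groups. The cBEC response of Gjb5 was smaller than its NPD response by -2.80 (SE 0.57, limma adjusted p = 0.0014). It was among 3 members called of 26 tested, where 3.79% of all genes were called. Without the library PH cBEC replicate 1, whose tag differs from its title, 3 members were called and the limma adjusted p of Gjb5 was 0.000231. The call of Gjb5 was lost without PH cBEC replicate 2 (limma adjusted p = 0.0579) and with a pseudocount of 0.1 (0.054), which left 1 member called. In EC against LSEC 2 of 26 members were called, where 0.345% of all genes were. Gjb5 was among them, but it was listed at 0 in every LSEC library, so that its difference of 2.58 is its EC change, which was not called. That call was lost without normal EC replicate 1 (limma adjusted p = 0.265) and with a pseudocount of 0.1 (limma adjusted p = 0.0524), each leaving 1. An F test of all differences of response called 13 of 26 members, near the 47.8% of all genes called. Gjc1, Gja1, Gja4 and Gjb5 were among the 6 members of smallest p, with limma adjusted p from 8.31e-07 to 2.4e-05. Gjb1, whose values outside hepatocytes include many listed zeros, was lost without PH cBEC replicate 1 or 2 or PH BEC replicate 1.

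The promoters of Gjb5, which rose in NPD, and Gja4, which rose in LSEC, are shown as the 250 bases before the RefSeq transcription start (GRCm38.p6, - strand, chr4:127358165-127358414 for Gjb5 and chr4:127314040-127314289 for Gja4). They were searched on both strands for the AP-1 motif TGANTCA, whose matches would be in capitals. RefSeq promoters were matched for 31 of the 43 members.
Gjb5 promoter: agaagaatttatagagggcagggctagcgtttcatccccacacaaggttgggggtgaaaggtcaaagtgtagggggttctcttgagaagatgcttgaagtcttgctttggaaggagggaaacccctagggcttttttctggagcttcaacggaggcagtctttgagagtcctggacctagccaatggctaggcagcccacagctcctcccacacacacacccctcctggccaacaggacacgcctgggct
Gja4 promoter: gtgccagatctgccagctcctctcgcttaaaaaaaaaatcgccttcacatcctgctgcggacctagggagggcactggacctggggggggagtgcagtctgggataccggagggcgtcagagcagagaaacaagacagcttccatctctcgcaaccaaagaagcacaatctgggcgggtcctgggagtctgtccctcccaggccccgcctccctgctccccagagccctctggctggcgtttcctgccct
Neither window held the AP-1 letters, which 6.75% of 32817 promoters of that length hold. The Gjb5 window held the letters TATAAA on the opposite strand, as 12.4% of promoters do on either strand, and the Gja4 window did not.

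Cldn5, Gja4 and Gja5 are genes of vessel walls: Cldn5 is the main tight junction claudin of endothelium, and Gja4 (connexin 37) and Gja5 (connexin 40) couple arterial endothelial cells. In normal liver Cldn5 was at 414 and 507 FPKM in EC and 378, 423 and 377 in LSEC, with overlapping libraries. Gja4 was at 358 and 337 FPKM in EC, above the 280, 148 and 267 of LSEC. Gja5 was at 86.6 and 192 FPKM in EC and at 13.2, 0.451 and 43.4 in LSEC. The duct sorts were compared as 1 set with EC and LSEC in the fit of normal populations. Limma called 16 of 26 members, 13 higher and 3 lower in the ducts, where 52.3% of all genes were called (35.1% higher and 17.3% lower). The 3 lower were Gja4 by -6.52 (SE 0.36), Cldn5 by -6.41 (SE 0.52) and Gja5 by -4.77 (SE 0.63), with a largest limma adjusted p of 1.23e-06. The 6 largest toward the ducts were Cldn3 by 6.91 (SE 0.37), Cldn7 by 6.04 (SE 0.42), Cldn2 by 5.87 (SE 0.27), Cldn6 by 5.67 (SE 0.35), Cldn4 by 5.31 (SE 0.41) and Cldn8 by 4.72 (SE 0.30).

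EC and LSEC of normal liver did not differ by the test for any of 7 members, where 0.00843% of all genes tested were called by limma, and 1 member had an unadjusted p under 0.05. That was Gja1, the widely expressed connexin 43, at 30.5 and 15.9 FPKM in EC against 62.3, 93.8 and 78.2 in LSEC (-1.76, SE 0.30, limma adjusted p = 0.167). Gja5 differed by 3.75 (SE 1.57, limma adjusted p = 0.585) and Cldn15 by 1.30 (SE 0.67, limma adjusted p = 0.647). LSEC markers (Stab2, Stab1, Lyve1, Clec4g, Fcgr2b, Mrc1) summed to 2744 to 5772 FPKM in EC and 4878 to 9500 in LSEC, so the EC sort held them too.

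**Figure D4:**
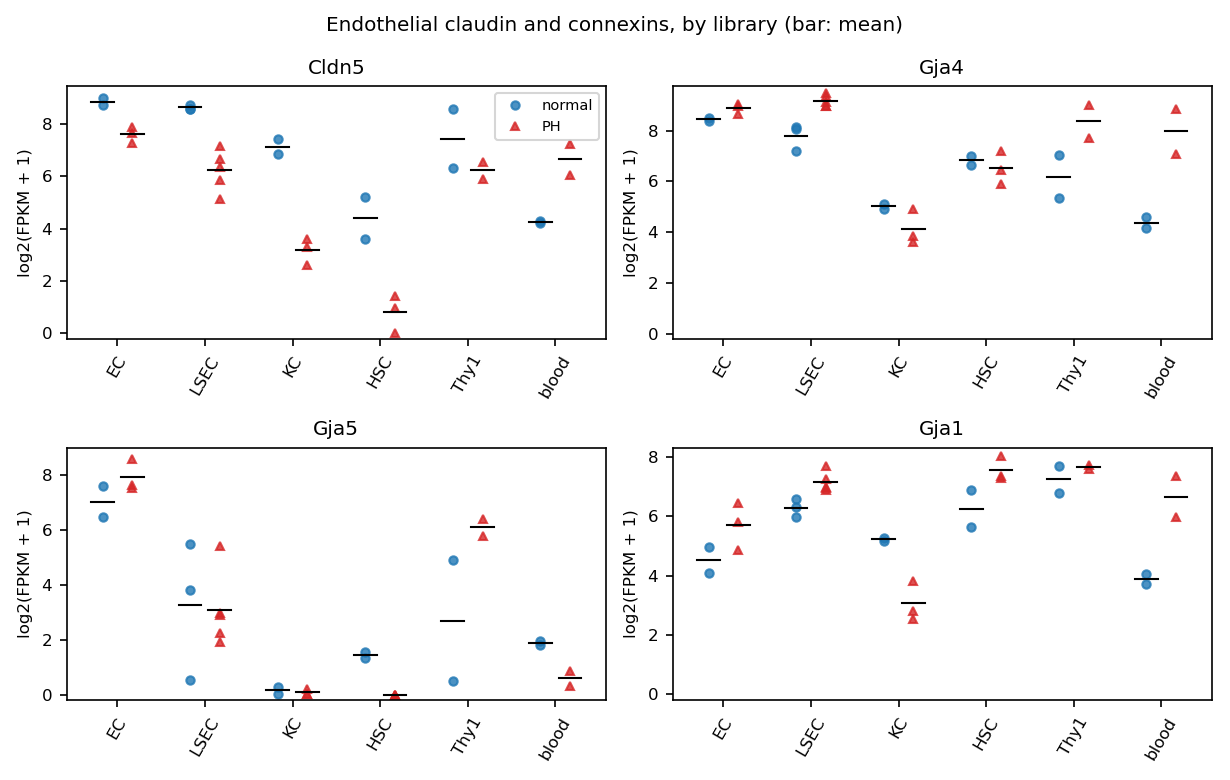
Level of Cldn5, Gja4, Gja5 and Gja1 as log2(FPKM + 1) on the y axis, for every library of EC, LSEC, KC, HSC, Thy1 and blood (x axis), with blue circles for normal liver, red triangles for PH and black bars for the group mean. In LSEC the PH libraries of Cldn5 lie below and those of Gja4 above the normal libraries.

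In LSEC after PH, Cldn5 fell and Gja4, Gjc1, Cldn15 and Gja1 rose. Cldn5 was at 56.8, 81.0, 141, 34.1 and 99.8 FPKM in the 5 PH libraries, all below the 3 normal ones (-2.39, SE 0.38, limma adjusted p = 0.00659). Gja4 was at 509, 709, 564, 503 and 663 FPKM, all above the normal ones (1.39, SE 0.24, limma adjusted p = 0.00955). Gjc1 (connexin 45), known from mural cells and the heart's conduction system, went from 1.53, 2.83 and 4.41 FPKM to 16.9, 25.4, 10.4, 21.7 and 17.6 (2.32, SE 0.31, limma adjusted p = 0.00294). Cldn15 went from 4.29, 2.17 and 7.77 FPKM to 29.9, 49.0, 14.4, 60.8 and 23.7 (2.62, SE 0.47, limma adjusted p = 0.012). Gja1 went from 62.3, 93.8 and 78.2 FPKM to 206, 125, 152, 116 and 121 (0.86, SE 0.22, limma adjusted p = 0.0406). These 5 of 8 members were called, where 8.46% of all genes were (4.15% higher and 4.31% lower). For each the normal and PH libraries did not overlap, and how many of all genes did so was not counted. In the single fit of 20 groups the calls of Gja4 (limma adjusted p = 0.0507) and Gja1 (0.105) were lost. Without normal LSEC replicate 1, 3 were called, Cldn15 (limma adjusted p = 0.0547) and Gja1 (0.167) being lost. The limma call of Gja1 was also lost without PH LSEC replicate 1, 3, 4 or 5 (0.0759, 0.0528, 0.0517 and 0.0615) and without normal replicate 2 or 3 (0.0653 and 0.0879). The LSEC marker sum was 4878 to 9500 FPKM in normal and 1480 to 5507 in PH LSEC with 1 of 6 called lower, while the 6 endothelial markers (Pecam1, Cdh5, Kdr, Tek, Tie1, Vwf) summed to 2901 to 3115 and 2584 to 3602 with 0 of 6 called. The Thy1 and portal fibroblast marker list summed to 9.37 to 217 FPKM in normal and 123 to 603 in PH LSEC, with none at 0, and the part of these lists was not tested.

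In EC, none of 16 members was called by limma, where 0.0249% of all genes were. An unadjusted p under 0.05 was found for 7 members, a share not counted for all genes. Cldn5 was at 151, 236 and 201 FPKM after PH, below both normal libraries (-1.24, SE 0.25, limma adjusted p = 0.203), and Gja4 at 403, 529 and 499, above both (0.45, SE 0.21, limma adjusted p = 0.499). Gja5 was at 184, 379 and 200 FPKM, overlapping the normal libraries. The difference of the EC and LSEC responses was 1.15 (SE 0.91, limma adjusted p = 1) for Cldn5 and -0.94 (SE 0.72, limma adjusted p = 1) for Gja4.

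Cldn5 and Gja1 fell in Kupffer cells, which are macrophages of the sinusoid. Cldn5 was at 113 and 170 FPKM in normal KC and at 8.75, 5.11 and 11.2 after PH (-3.96, SE 0.34, limma adjusted p = 0.00164). Gja1 went from 37.7 and 34.8 FPKM to 6.03, 4.81 and 13.2 (-2.16, SE 0.39, limma adjusted p = 0.0111). They were 2 of 3 members tested, where 36.8% of all genes were called (16.7% higher and 20.1% lower). Their libraries did not overlap, and how many of all genes did so was not counted. Gja1 was lost without normal KC replicate 1 (limma adjusted p = 0.1) or 2 (0.0869), leaving 1 call. Beside this, the endothelial marker sum was 1125 to 1408 FPKM in normal KC and 284 to 517 after PH, with 4 of 6 called lower, and the LSEC marker sum 3559 to 4732 and 469 to 715, with 6 of 6 called lower. No marker of either list was at 0, and their part in the fall of Cldn5 and Gja1 was not tested.

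In the blood sort Cldn5, Gja4 and Gja1 were higher and Cldn10 and Gja5 lower after PH. Cldn5 was at 18.6 and 17.6 FPKM in normal liver and 150 and 65.2 after PH (2.39, SE 0.41, limma adjusted p = 0.00722). Gja4 went from 16.9 and 23.1 FPKM to 463 and 135 (3.60, SE 0.61, limma adjusted p = 0.0068), and Gja1 from 12.2 and 15.6 to 163 and 61.6 (2.77, SE 0.48, limma adjusted p = 0.00749). Cldn10 and Gja5 were lower, from 1.96 and 3.04 FPKM to 0.108 and 0 (-1.71, SE 0.22, limma adjusted p = 0.00319) and from 2.46 and 2.87 to 0.804 and 0.254 (-1.28, SE 0.24, limma adjusted p = 0.0095). These were 5 of 7 members, where 64% of all genes were called (24.3% higher and 39.7% lower), so a call in this sort was the usual outcome. With normal blood replicate 1 or 2 left out 0 were called (limma adjusted p of 0.0504 to 0.107), and without PH blood replicate 2, 10 were. All 6 endothelial markers were called higher (summed 269 to 287 FPKM in normal, 864 to 1674 after PH), as were all 6 LSEC and all 6 Kupffer markers, and all 6 blood markers were called lower. Their part was not tested.

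Stellate cells held Gjc1 (connexin 45). It was at 32.5 and 35.0 FPKM in normal HSC and at 29.7, 38.3 and 27.6 after PH, above all other sorts under both treatments. HSC and Thy1 cells were compared in normal liver. Limma called 5 of 18 members, where 9.55% of all genes were called (2.4% higher and 7.15% lower), all 5 lower in HSC. Cldn15 was at 0.511 and 2.72 FPKM in HSC (-6.47, SE 0.52, limma adjusted p = 0.00731) and Gjb5 at 0 and 0.315 (-4.08, SE 0.51, limma adjusted p = 0.018). Cldn2 was at 0 and 0.0167 FPKM in HSC against 6.65 and 18.7 in Thy1 cells (-3.61, SE 0.63, limma adjusted p = 0.0355). Cldn10 (limma adjusted p = 0.0203) and Cldn11 (0.0321) were listed at 0 in both HSC libraries, against 17.8 and 10.7 and against 4.68 and 3.95 FPKM in Thy1 cells. With either Thy1 library left out 0 were called (limma adjusted p of 0.0599 to 0.215). Without normal HSC replicate 1, 3 were called, Cldn11 (0.0946) and Cldn2 (0.079) being lost, and without HSC replicate 2 Cldn11 was lost (limma adjusted p = 0.0571). Thy1 libraries held a duct sum of 863 to 5134 FPKM and the mesothelial sum given above, against 0.292 to 31.9 and 0.864 to 3.54 in HSC. The endothelial sum was 925 to 933 FPKM in Thy1 libraries and 68.7 to 311 in HSC. The Thy1 and portal fibroblast sum was 1068 to 1299 FPKM in Thy1 libraries and 22.6 to 45.5 in HSC. The part of these lists was not tested.

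In HSC after PH none of 9 members was called by limma, where 0.00853% of all genes were. An unadjusted p under 0.05 was found for 4, a share not counted for all genes. The largest changes were Cldn5, from 11.2 and 36 FPKM to 0.963, 0 and 1.71 (-3.60, SE 0.76, limma adjusted p = 0.355), Gja5 (-1.44, SE 0.59, limma adjusted p = 0.572) and Gja1, from 116 and 48.8 to 262, 161 and 157 (1.31, SE 0.42, limma adjusted p = 0.498). Gja4, at a mean of 114 FPKM in normal HSC, changed by -0.31 (SE 0.41, limma adjusted p = 0.862). The endothelial marker sum was 68.7 to 311 FPKM in normal HSC and 2.84 to 18.4 after PH, and its part was not tested. In Thy1 cells none of 19 members was called by limma, where 0.00747% of all genes were. An unadjusted p under 0.05 was found for 7, and a single fit of all 20 groups called 8. The share of all genes was counted for neither. Among the 3 largest changes was that of Gja5, from 0.397 and 28.8 FPKM to 54.4 and 83.8 (3.41, SE 1.40, limma adjusted p = 0.29). The endothelial sum in Thy1 cells was 925 to 933 FPKM and then 1305 to 2528, and its part was not tested.

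In BEC and cBEC no member was called after PH. None of 18 members was called by limma in cBEC, where 0.0681% of all genes were (0.0454% higher and 0.0227% lower), and none of 15 in BEC, where 1.81% were. In cBEC 6 and in BEC 4 members had an unadjusted p under 0.05, a share not counted for all genes. A single fit of all 20 groups called 2 in cBEC and 3 in BEC, and the share of all genes called in it was not counted. Leaving out PH cBEC replicate 1 kept the count in cBEC at 0, and leaving out normal BEC replicate 2 raised the count in BEC to 2. Cldn6 reached 219 and 247 FPKM in cBEC after PH and 243 and 263 in BEC, in both above every normal library of the sort (0.73, SE 0.30, limma adjusted p = 0.475, and 0.54, SE 0.22, limma adjusted p = 0.271). Cldn8 was at 37.3 and 51.9 FPKM in PH BEC, below the normal 65.7, 70.5, 58.3 and 74.8 (-0.60, SE 0.19, limma adjusted p = 0.176). The largest changes in cBEC were Gjb1 (values above, limma adjusted p = 0.483), Cldn15 (-2.12, SE 0.59, limma adjusted p = 0.37) and Cldn10 (-1.15, SE 0.39, limma adjusted p = 0.427). In BEC they were Cldn5 (-2.94, SE 0.68, limma adjusted p = 0.08), Gjb1 (20.8 and 11.1 FPKM after PH, limma adjusted p = 0.389) and Gja4 (-2.03, SE 0.49, limma adjusted p = 0.0851). Endothelial markers in BEC summed to 25.7 to 107 FPKM in normal and 0.873 to 1.72 in PH libraries, with 3 of 6 called lower, and their part in the values of Cldn5 and Gja4 was not tested. Mesothelial markers in cBEC summed to 146 to 502 FPKM in normal and 60.6 to 77.3 in PH libraries, with 0 of 6 called. Hepatocyte markers summed to 0 to 858 FPKM in normal cBEC and to 0 in PH cBEC. Whether these listed zeros are failed estimates was not tested, so they do not show that hepatocyte RNA was absent. The part of these 2 lists in the cBEC changes was not tested.

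**Figure D5:**
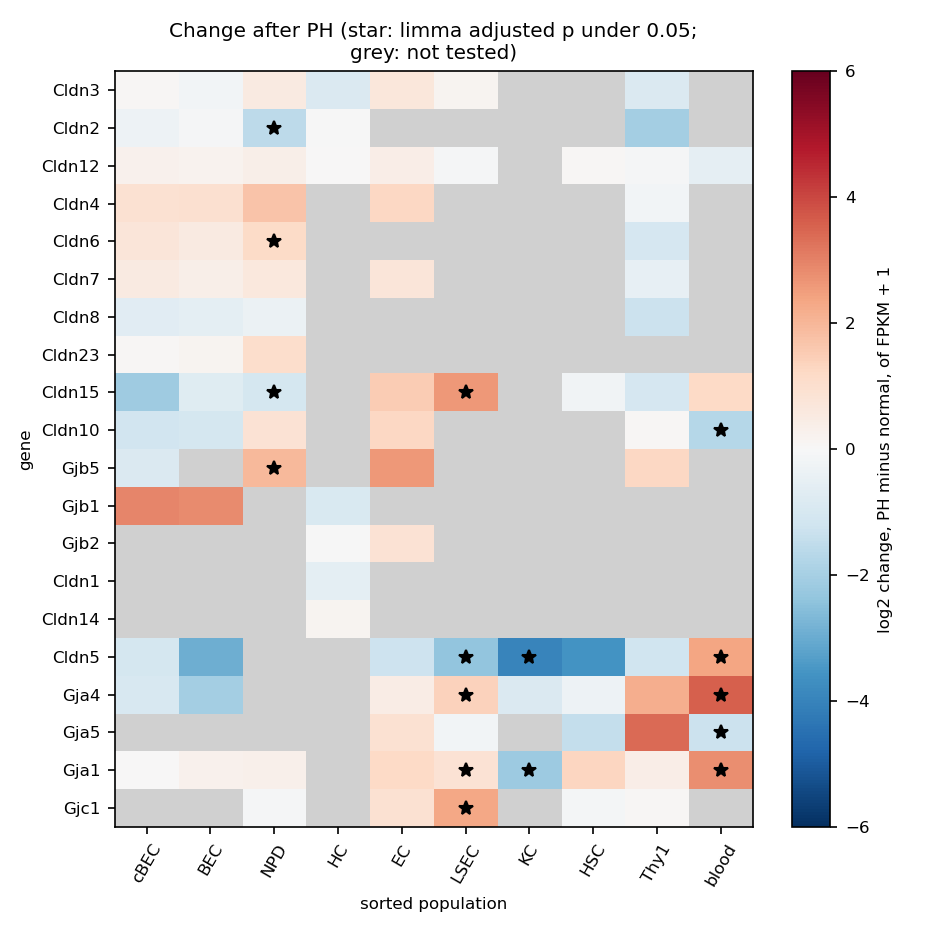
Change after PH (PH minus normal, log2(FPKM + 1), by colour) of 20 genes that reached 10 FPKM in a group mean, in rows, across the 10 sorts, in columns, with stars for limma adjusted p under 0.05 and grey where the gene was not tested. Cldn5 is blue with a star in LSEC and KC and red with a star in blood, and Cldn11, Cldn20 and Cldn22 are not drawn.

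Gja1 and Gjc1 were above 0 in all 47 libraries outside hepatocytes. Gja1 was highest in NPD, at 187 and 202 FPKM in normal liver and 236 and 240 after PH, overlapping the 207 and 110 of normal Thy1 cells and, after PH, the 262 of 1 HSC library. In normal hepatocytes it was at 0, 0.06, 0.22 and 0.56 FPKM. Over the 20 group means of log2(FPKM + 1), which share libraries and the zeros described above, among the members most alike were Cldn6 and Cldn7 (Pearson r = 0.995), Cldn4 and Cldn7 (0.989), Gjb2 and Cldn14 (0.982) and Cldn2 and Cldn3 (0.98). For Cldn5 the most alike was Gja4 (0.838). These are descriptions over 20 groups.

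Scaffold and adhesion genes of cell junctions, together with the pannexins, which are neither, were taken as a list of 26 genes. Among them were the Tjp scaffolds, Ocln, the tricellular proteins Lsr, Ildr1 and Marveld2, the junctional adhesion molecules and the cadherins Cdh1 and Cdh5. In BEC against hepatocytes limma called 23 of 24 tested, all higher in BEC, where 85.9% of all genes were called (71.7% higher), led by Ildr1 at 5.29 (SE 0.13), Marveld3 at 4.21 (SE 0.14) and Magi1 at 3.97 (SE 0.25). Their median was 2.87, against 1.35 for all genes tested. In cBEC against NPD 17 of 25 were called, 14 higher, where 29.7% of all genes were called, the largest being Esam (-3.80, SE 0.68), Cdh1 (3.27, SE 0.20) and Ocln (2.93, SE 0.19). In ducts against endothelium 24 of 25 were called, 20 higher and 4 lower, where 52.3% of all genes were called, led by Jam2 (-7.01, SE 0.57), Cdh1 (6.67, SE 0.44) and Cdh5 (-6.26, SE 0.57). In HSC against Thy1 cells 8 of 22 were called, all lower, where 9.55% of all genes were called, with Pard6b and Lsr listed at 0 in both HSC libraries. After PH, 10 of 12 were called in KC (9 lower, led by Tjp1 at -3.62, SE 0.29), where 36.8% of all genes were. In blood 14 of 18 were called (8 higher, led by Cdh5 at 4.48, SE 0.20), where 64% of all genes were. Endothelial and LSEC markers moved with them, 4 of 6 and 6 of 6 called lower in KC and 6 of 6 of each list called higher in blood, and their part was not tested. Cdh5 is in both the list of 26 genes and the endothelial marker list, so these lists are not independent. In LSEC 3 of 15 were called, where 8.46% of all genes were: Jam2 at 2.11 (SE 0.33), Cgnl1 at 1.40 (SE 0.27) and Magi3 at -0.73 (SE 0.17). In BEC 3 of 25 were called, where 1.81% of all genes were: Cdh5, Esam and Jam3, all lower, beside the endothelial markers given above. In NPD 1 of 24 was called, where 15.2% of all genes were, the pannexin Panx1 at 0.99 (SE 0.21). None was called in cBEC, HC, EC, HSC or Thy1 cells by limma, with 3, 6, 2, 3 and 5 at an unadjusted p under 0.05, a share not counted for all genes. Jam2 in LSEC stood at 161 to 469 FPKM in normal and 984 to 1733 in PH libraries.

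The remaining 20 members were near 0. Cldn11 reached 4.68 and 3.95 FPKM in normal Thy1 cells, Cldn22 a mean of 1.95 in PH EC and Cldn20 a mean of 1.02 in normal Thy1 cells. The 17 that stayed below 1 FPKM in every group mean included Cldn9, Cldn13, Cldn16, Cldn17, Cldn18, Cldn19, Cldn24, Gja3, Gja6, Gja10, Gjb6, Gjc3, Gjd2, Gjd3, Gjd4 and Gje1, the highest group mean being 0.748 for Gja3 in normal HSC. Cldn22 and Cldn24, neighbours on chromosome 8, share a run of 472 bases in their transcripts, so that values of these 2 are uncertain.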

How the data were processed

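RNA of 10 sorted populations was sequenced in 55 libraries. The deposited table holds FPKM made by the authors, a unit its own name gives, with 1 column per replicate and 36141 rows (transcripts) for 24478 symbols, of which 68 rows belong to the members. Per the submitters' processing notes, CASAVA 1.8.2, Bowtie 1.0.0 and the build mm9 were used, with no roles given. The counting tool is not given in the sources used here. Coordinates of genes are the table's own, and sequences come from GRCm38, never mixed.

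Groups follow sample titles. limma 3.58.1 (R 4.3.3, variance trend, robust) was fitted on log2(FPKM + 1) over all genes with at least 1 FPKM in as many libraries as the smallest group fitted, two-sided, called at a Benjamini-Hochberg adjusted p under 0.05. Changes on this scale understate low genes. The share of all genes without overlap of libraries was not counted, so statements of no overlap only describe the named genes. Nor was the share of all genes at an unadjusted p under 0.05 counted. Differences of response used 1 fit of 20 groups. A called member was named in each comparison, or the 6 largest in each direction above 12 calls, and the 3 largest changes where none was called. For the F test of responses the 6 of smallest p were named, chosen after its values were seen, as were further members whose call depended on a setting or a library, or whose levels a paragraph compares. The members, the partner and marker lists and the tests were chosen with earlier results of these data known. Alternatives were a pseudocount of 0.1, no filter, upper-quartile and quantile scaling, a single fit, a replicate block, genes under 10 FPKM in hepatocytes, the mean of a symbol's rows and leaving out each library. FPKM without counts give no depth, so no counting interval was made. The fits were tested on simulated data. Python 3.11.15 and matplotlib 3.10.9 drew the figures. Some members, a marker gene and some sequences are not reported here, but they entered the fits and counts.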

Additional observations from a re-analysis of the deposited data

Results flagged for a closer look

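In 4 of 40 sets of 4 to 10 libraries examined, 1 library stood far from the others, where chance gives about 2. Cldn3 in normal cBEC was at 514.77 FPKM in replicate 3 and between 345.88 and 363.24 in the others. Cldn4 in normal cBEC was at 337.89 FPKM in replicate 1 and between 85.4 and 97.3 in the others. Cldn4 in normal BEC was at 293.02 FPKM in replicate 2 and between 93.7 and 123 in the others. Gja5 in PH LSEC was at 41.519 FPKM in replicate 2 and between 2.82 and 6.82 in the others.

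The change after PH differed between sorts, by the limma test of the difference itself, for 13 of 26 members over all 10 sorts, where 47.8% of all genes were called. Between cBEC and NPD it differed for 3 members, Gjb5 among them, where 3.79% of all genes were called. Between EC and LSEC 2 members were called, where 0.345% of all genes were, but Gjb5, among them, was listed at 0 in every LSEC library, so its difference is its EC change, which was not called.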

How the results depend on the processing

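Counts of members called (limma, adjusted p under 0.05) moved as follows. The share of all genes called was not counted under these settings or with a library left out. The counts here therefore show dependence on the setting and are not results about the members. With a pseudocount of 0.1 the count was 2 in BEC after PH, 1 for the response of cBEC against NPD and 1 for that of EC against LSEC. With no filter it was 2 in NPD, 5 in KC and 8 in blood after PH, 26 for BEC against HC and 3 for HSC against Thy1. With quantile scaling it was 3 for HSC against Thy1. In a single fit of all 20 groups it was 2 in cBEC, 3 in BEC, 3 in EC, 3 in LSEC, 2 in HSC and 8 in Thy1 after PH, 2 for EC against LSEC and 15 for HSC against Thy1. Cldn12 in BEC against HC turned to the lower side with quantile scaling (-0.20, adjusted p = 0.327) and upper-quartile scaling (-0.35, adjusted p = 0.105), as the median of all genes moved from 1.35 to 0.18 and 0.65. For the other changes the cause was not tested.

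Leaving out 1 library gave 0 to 2 calls in BEC, 0 to 9 in NPD, 3 to 5 in LSEC, 1 to 3 in KC and 0 to 10 in blood after PH, and 0 in every case in cBEC, HC, EC, HSC and Thy1. It gave 16 to 17 for BEC against HC, 10 to 14 for cBEC against NPD, 15 to 18 for ducts against endothelium, 0 to 4 for HSC against Thy1, 0 in every case for EC against LSEC, 23 to 26 over populations, 12 to 18 for responses, 2 to 4 for the response of cBEC against NPD and 1 to 3 for that of EC against LSEC. Where this left a group with 1 library, that library is assumed to vary like the others. With the replicate number as a block 2 were called in BEC, 3 in Thy1 and 0 in LSEC after PH. Whether equal replicate numbers mark paired samples is unknown. The correlation of same-numbered deviations was -0.231 to -0.00927 over 3 pairs in LSEC and -0.645 to 0.501 over 4 pairs in HC. Such correlations over so few pairs cannot decide it. Of 2810 alternative values of single called members, 112 were no longer called and 2 had reversed. That total pools unlike comparisons, the F test of responses giving 55 left-out fits for each called member, so it says little about single calls after PH. In LSEC after PH, Gja1 was lost in 7 of 8 left-out fits and 4 of 8 other settings. Cldn5 there was lost in 0 of 8 and 1 of 8. Depth is unknown, so levels near 0 carry no floor.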

Other observations

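Cldn10 has 6 rows in the table, which begin at 2 places on chromosome 14 (mm9). The 2 rows with the downstream start, at 119254171, were at means of 27.7 and 27.5 FPKM in normal NPD and 49.2 and 47.8 after PH. The 4 rows starting at 119187092 were at 13 to 15.1 FPKM in normal NPD and 22.1 to 26.5 after PH. The rows overlap, so how reads were shared between them is unknown.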
